A study of Mus musculus with 2 samples.

Results

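Heparan sulfate proteoglycans are proteins of the cell surface and matrix that carry long, sulfated sugar chains. The 33 genes described here encode the cell-surface core proteins and the enzymes that build, modify and trim the chains. They were found by gene symbol among the 18032 genes of the deposited table. The core proteins are the glypicans (6) and the syndecans (4). The EXT family (5) includes the chain polymerase genes Ext1 and Ext2. The other enzymes are the N-deacetylase/N-sulfotransferases (4), the epimerase Glce, the 2-O-sulfotransferase Hs2st1, the 6-O-sulfotransferases (3), the 3-O-sulfotransferases (7) and the endosulfatases (2). The rule uses symbols and no measured value, though the set was proposed with earlier results of these data known.

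The comparison rested on 1 library of polyadenylated RNA for each state of mouse pluripotent cells. The mESC library is from the line ES-E14TG2a, a wild-type embryonic stem cell line in the naive ground state. Its medium was serum-free N2B27 with LIF (100 units/ml), the ERK pathway inhibitor PD0325901 (1 µM) and the GSK3 inhibitor CHIR99021 (3 µM). The cEpiSC library is from cells converted in vitro towards the primed, epiblast-like state and is also labelled wild type. For the conversion, mESC were seeded on fibronectin, left for 24 h in the inhibitor medium, and then held for 2 days in N2B27 with activin A (20 ng/ml) and FGF2 (12 ng/ml). Medium and state therefore differ together and cannot be told apart. The same holds for the seeding on fibronectin, since no substrate is described here for the mESC library. No difference below has a replicate check or a p-value. In RNA from whole cultures, fewer cells expressing a gene and less RNA per cell also cannot be told apart.

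A heparan sulfate chain starts on a serine of the core protein, through a short linker shared with chondroitin sulfate, and is polymerised by the Ext1 and Ext2 complex. The chain is then N-sulfated, epimerised, and sulfated at the 2-O, 6-O and, rarely, 3-O positions. The resulting pattern influences which ligands bind. FGFs signal through a complex of ligand, receptor and heparan sulfate, and mouse embryonic stem cells that lack the chains are known to exit self-renewal poorly. Endosulfatases remove 6-O-sulfate groups from finished chains outside the cell.

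Library totals were 19843719 (mESC) and 19956733 (cEpiSC) estimated counts. State markers went with the labels. Of 7 naive markers 4 were at least 2-fold lower in cEpiSC (57.1%, against 9.25% of all genes compared) and none was higher. All 6 primed markers were higher, against 13.6% of all genes. Of these, Car4, Fgf5, Pou3f1 and Sox11 reached 1 CPM, the level needed for a comparison, in cEpiSC only. They could therefore be compared only by being higher there. Dnmt3b and Otx2 reached it in both libraries. Among markers of other cell types, the endoderm genes summed to 8.93 TPM (mESC) and 7.65 TPM (cEpiSC) over 7 genes, with Ttr at 0 counts in both. These sums were mostly Gata4 (4.75 and 2.25 TPM) and Gata6 (3.26 and 4.2 TPM). Of the 3 endoderm genes compared, Gata4 was at least 2-fold lower in cEpiSC (-1.01). Gata6 (0.40) and Sox17 (0.46) were within 2-fold. The 5 fibroblast genes summed to 2.04 and 5.69 TPM, with Postn at 0 in both and Thy1 as the gene that was higher. Mesoderm (5 genes) gave 10.4 and 7.56 TPM, of which Eomes made up 6.75 and 6.6 TPM. Of the 4 compared, 3 were at least 2-fold lower in cEpiSC (75%, against 9.25% of all genes). They were Kdr (42 and 5 counts, -2.72), Mixl1 (26 and 5, -2.07) and T (40 and 10, -1.88). Each of the 3 reached 1 CPM in mESC only, so it could be compared only by being lower in cEpiSC. Neural genes (4) gave 78.4 and 36.8 TPM and trophoblast genes (4) gave 41.5 and 21.1 TPM, sums that were mostly Tubb3 and Krt8. In those last lists Neurod1, Pax6 and Hand1 were higher in cEpiSC, all below 10 CPM. They reached 1 CPM in cEpiSC only, and so could be compared only by being higher there. The part of such cells in the results below was not tested.

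Levels are given as CPM, the count relative to the TMM-scaled total of its library, when libraries are compared, and as TPM, which is per transcript length, when genes are compared. The log2 ratio is cEpiSC over mESC, followed in brackets by its exact 95% interval, which covers counting error only. Any gene that reached 1 CPM in mESC or in cEpiSC was compared, and those at least 2-fold apart were called, on size only. Calls use the log2 ratio, which includes a prior count of 2 and is drawn towards 0 for low counts, whereas folds are printed without it. Of the 33 members, 24 reached that level and 9 did not. Hs6st2, Hs3st6 and Gpc6 reached it in cEpiSC only, so they could enter the comparison only by being higher there, and the counts below describe the 24 and not the family of 33. In cEpiSC 7 of the 24 were at least 2-fold higher (29.2%), against 13.6% of all 13243 genes compared. Lower by as much were 4 of 24 (16.7%), against 9.25% of all genes. For 6 of the higher members even the near end of the interval was past 2-fold, a stricter rule met by 9.15% of all genes. The same held for 3 of the lower members and for 6.34% of all genes. The 11 members called were spread over both directions, and the median log2 ratio of the 24 was -0.19, beside -0.02 for all genes compared.

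The medians of the core protein genes and the enzyme genes lay on opposite sides of 0. Of 9 core protein genes compared, 7 had a ratio above 0, with a median of 0.62. Of 15 enzyme genes, 11 had a ratio below 0, with a median of -0.43. For all genes compared, 48.8% were above 0. The medians kept these signs under each of the 9 alternative settings. On the TPM scale the core protein genes summed to 247 in mESC and 350 in cEpiSC, 1.42-fold higher. The enzyme genes summed to 454 and 317 TPM, 1.43-fold lower. These sums rest largely on a few abundant genes. Among the enzymes they include Sulf2 (197 and 121 TPM) and Hs6st1 (77.0 and 30.4 TPM), and among the core proteins Sdc4 (141 and 163 TPM) and Gpc3 (26.6 and 82.7 TPM). By call the enzyme genes were even, with 3 higher and 3 lower (20% each, against 13.6% and 9.25% of all genes). Core protein genes had 4 higher (44.4%) and 1 lower (11.1%). Both counts of higher genes include some that reached 1 CPM in cEpiSC only and could be compared only by being higher there. These were Hs6st2 and Hs3st6 among the enzymes, beside Sulf1, and Gpc6 among the core proteins.

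**Figure D1:**
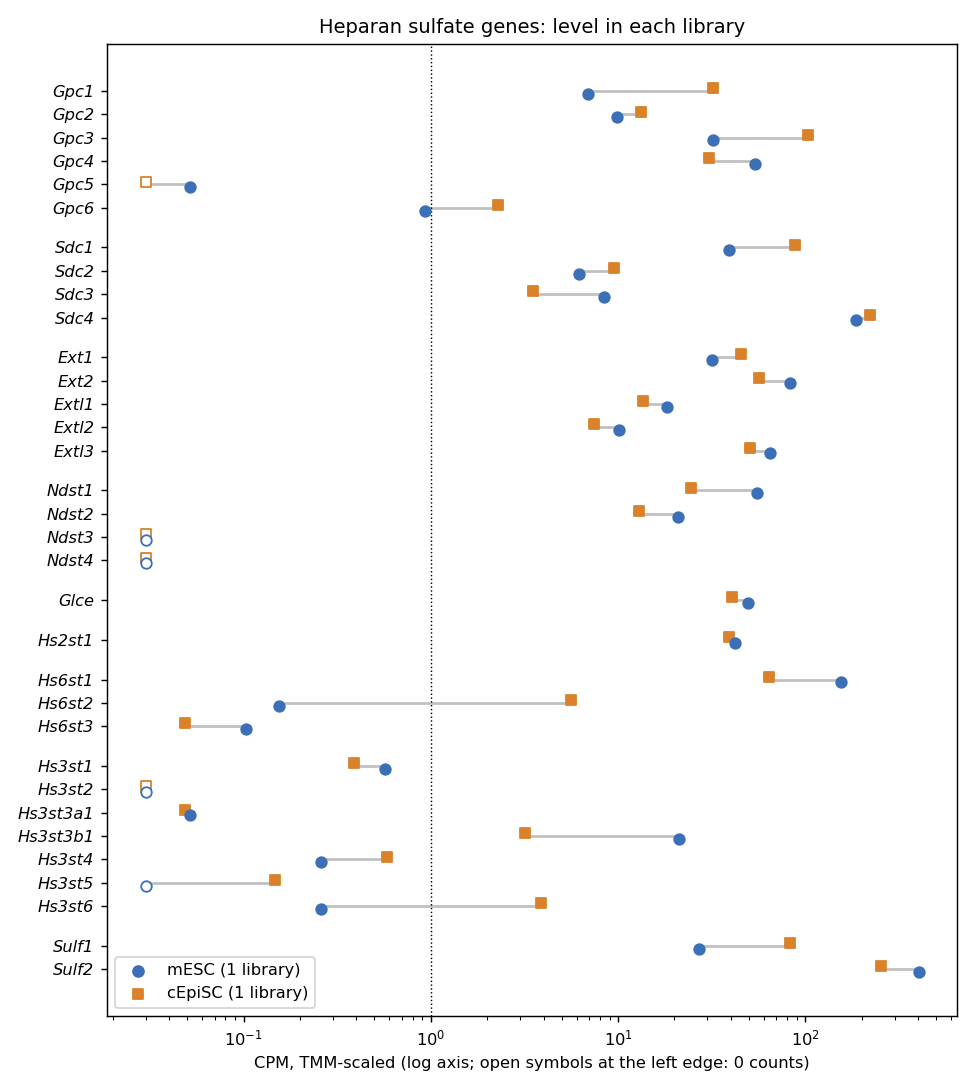
Level of each of the 33 members in the mESC library (blue circles) and the cEpiSC library (orange squares), in CPM on a log axis, grouped by role; open symbols mark 0 counts and the dotted line 1 CPM. Hs6st2, Hs3st6 and Gpc6 lie below the line in mESC and above it in cEpiSC, and Ndst3, Ndst4 and Hs3st2 have 0 counts in both libraries.

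Of the members whose interval lay wholly beyond 2-fold, no sequence before the transcription start was at hand for Gpc1, Sulf1, Hs3st6 and Ndst1. It is shown for 4 others: Gpc3 and Sdc1, higher in cEpiSC, and Hs6st1 and Hs3st3b1, lower. Each is RefSeq sequence of build GRCm38.p6, read 5′ to 3′ on the gene's strand and ending at the annotated start, or earlier where a GENCODE vM21 exon of the gene begins (6 bases left out for Hs3st3b1, 73 for Sdc1). Capitals mark matches, on either strand, to 6 motifs that factors active in these states are known to bind: the POU octamer (ATGCAAAT), a TCF/LEF motif (CTTTGAT), an OTX motif (TAATCC), an ETS motif (CCGGAAGT), the GC box (GGGCGG), bound by Sp and Klf factors, and TATAAA. Gpc3 lies at chrX:52613975-52614224 (minus strand), Sdc1 at chr12:8771146-8771322 (plus), Hs6st1 at chr1:36068150-36068399 (plus) and Hs3st3b1 at chr11:63922291-63922534 (minus).
Gpc3: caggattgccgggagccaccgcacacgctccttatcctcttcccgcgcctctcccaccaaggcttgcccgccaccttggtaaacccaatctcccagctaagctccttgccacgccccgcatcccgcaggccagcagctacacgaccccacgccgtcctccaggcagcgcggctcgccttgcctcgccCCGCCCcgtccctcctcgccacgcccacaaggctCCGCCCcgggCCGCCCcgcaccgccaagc
Sdc1: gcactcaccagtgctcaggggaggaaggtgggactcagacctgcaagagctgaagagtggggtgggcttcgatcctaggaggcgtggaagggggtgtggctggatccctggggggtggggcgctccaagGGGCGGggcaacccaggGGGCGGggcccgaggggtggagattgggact
Hs6st1: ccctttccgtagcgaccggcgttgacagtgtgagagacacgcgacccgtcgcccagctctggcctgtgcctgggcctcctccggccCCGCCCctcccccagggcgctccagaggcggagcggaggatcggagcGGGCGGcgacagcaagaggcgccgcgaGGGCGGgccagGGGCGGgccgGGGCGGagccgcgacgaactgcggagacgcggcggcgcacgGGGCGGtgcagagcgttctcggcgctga
Hs3st3b1: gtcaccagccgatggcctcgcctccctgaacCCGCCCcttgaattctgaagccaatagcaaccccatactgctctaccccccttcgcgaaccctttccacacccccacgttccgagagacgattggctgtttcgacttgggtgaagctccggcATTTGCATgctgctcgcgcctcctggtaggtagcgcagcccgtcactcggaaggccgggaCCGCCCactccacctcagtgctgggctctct

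A GC box was found in each window shown, with 3 matches for Gpc3, 2 for Sdc1, 6 for Hs6st1 and 2 for Hs3st3b1. It was absent from both windows of Hs6st2, the member with the highest ratio, which also met the rule for showing. Both windows overlap the annotated span of the gene, and 1 lies wholly inside it. Windows were printed only where enough sequence was left before the annotated exons and outside the gene, so neither is shown. The other window, partly outside the gene, held TATAAA. Hs3st3b1 also held 1 match to the octamer, read as its reverse complement ATTTGCAT. No other motif matched in the windows shown. Windows of 250 bases were at hand for 24 of the 33 members (28 starts), and 64.3% of these held a GC box, against 32.7% of all 32851 promoters in the table. The octamer was in 1 of the 28 member windows (3.6%) and 1.6% of all. The ETS motif was also in 1 member window (3.6%) and 2.9% of all. TATAAA was in 3 member windows (10.7%) and 12.4% of all. TCF/LEF and OTX matches were in 0 member windows and in 3.2% and 6.3% of all. The member windows were rich in G and C (median 64.8%, against 52.4% of all). For members below 1 CPM the median was 64.0% (range 40.4% to 82.0%) and for the compared members 66.0% (50% to 76.4%). The lowest values were those of Ndst3, which had 0 counts in both libraries (40.4% and 42.4%). A match of letters is a description and not evidence of binding.

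Glypicans are core proteins held to the outer membrane by a GPI anchor, known as co-receptors for Wnt, Hedgehog, BMP and FGF ligands. Of 5 glypican genes compared, 3 were called higher in cEpiSC (13.6% of all genes were) and none lower (9.25% of all genes were); 1 of the 3, Gpc6, reached 1 CPM in cEpiSC only. Gpc3 (Entrez 14734, chromosome X, 52272426 to 52613974 in GRCm38.p6), a regulator of body growth, had 625 counts in mESC (32.3 CPM) and 2122 in cEpiSC (104 CPM), a log2 ratio of 1.68 [1.55 to 1.81]. Gpc1 (Entrez 14733, chromosome 1, 92831645 to 92860211), an FGF co-receptor, went from 6.92 to 32.1 CPM, 4.64-fold higher (2.20 [1.94 to 2.49]). Gpc6 was near the limit of 1 CPM, with 18 and 47 counts (1.22 [0.49 to 2.18]). Its difference fell within 2-fold on the TPM (0.35) and FPKM (0.24) scales, on which a pseudocount of 1 was added.

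Gpc4 moved the other way. A glypican known from neural progenitors, it had 1047 counts in mESC (54.1 CPM) and 629 in cEpiSC (30.7 CPM; -0.81 [-0.96 to -0.67]), 1.76-fold lower and so within 2-fold. Gpc2, a glypican of developing neurons, was at 9.82 and 13.3 CPM (0.43 [0.16 to 0.71]). Gpc5 had 1 count in mESC and 0 in cEpiSC, where a count of 0 allows up to 0.147 CPM. The make-up of the family therefore differed: Gpc4 held 50.2% of glypican TPM in mESC and 15.4% in cEpiSC, and Gpc3 35.01% and 64.1%. Gpc1 held 4.91% and 12.6%. Summed glypican TPM was 76.0 in mESC and 129 in cEpiSC.

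Gpc3 and Gpc4 are neighbours on chromosome X, with 107.5 kb between them, and Hs6st2 lies 369.3 kb beyond Gpc4. The stretch from Hs6st2 to Gpc3 holds 5 genes of the deposited table. The ratios there ran in both directions: Hs6st2 was far higher in cEpiSC, Gpc3 3.21-fold higher and Gpc4 1.76-fold lower. The remaining pair, Usp26 (84.8 and 86.1 CPM) and 1700080O16Rik (3.62 and 4.06 CPM), differed little. Gpc5 and Gpc6 are likewise neighbours, on chromosome 14 with 399.7 kb between them, and were the least abundant glypicans in both libraries.

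Syndecans are transmembrane core proteins, and their cytoplasmic tails link to the actin cytoskeleton and to integrin adhesions. Sdc4, the syndecan of focal adhesions, was the most abundant member of the family and differed little, with 3592 counts (186 CPM) and 4554 (223 CPM; 0.26 [0.20 to 0.33]). Sdc1 (Entrez 20969, chromosome 12, 8771396 to 8793716), the main epithelial syndecan, had 761 counts in mESC (39.3 CPM) and 1798 in cEpiSC (87.9 CPM), which is 2.23-fold higher (1.16 [1.04 to 1.28]). Sdc2 stood at 6.15 and 9.53 CPM (0.62 [0.30 to 0.97]). Sdc3, known mainly from neural tissue, was the one core protein gene called lower, with 162 and 72 counts (-1.23 [-1.67 to -0.84]). It was at 3.12 and 1.29 TPM, but within 2-fold once a pseudocount of 1 was added to TPM (-0.85) or FPKM (-0.62). On the TPM scale Sdc4 exceeded Sdc1 5.9-fold in mESC and 3.17-fold in cEpiSC, so Sdc4 led the family in both libraries.

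**Figure D2:**
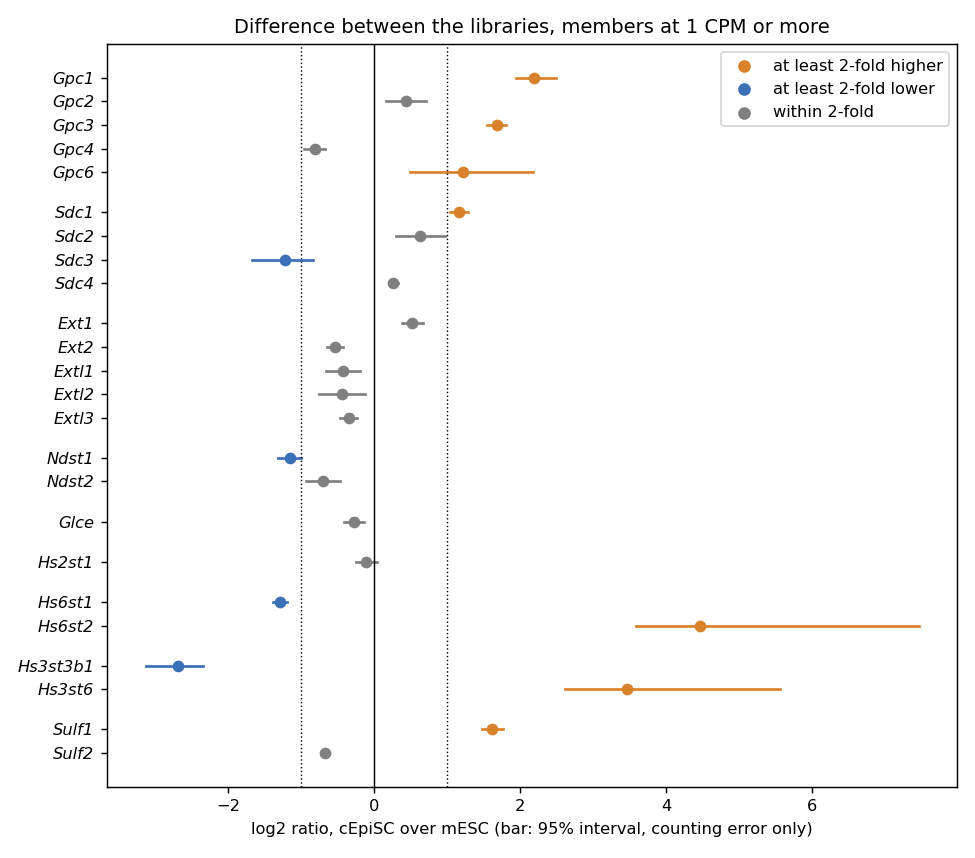
Log2 ratio of cEpiSC over mESC for the 24 members at 1 CPM or more, grouped by role; points include a prior count of 2, bars are exact 95% intervals without it, and dotted lines mark 2-fold. Hs6st2 (4.47) and Hs3st6 (3.46) stand farthest to the right with wide intervals, Hs3st3b1 (-2.69) farthest to the left, and the EXT family lies wholly between the dotted lines.

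All 5 genes of the EXT family, which includes the backbone polymerase, stayed within 2-fold. So did most genes compared, of which 13.6% were called higher and 9.25% lower. Ext1 and Ext2 encode the subunits of the polymerase. Ext1 was higher in cEpiSC (31.6 and 45.4 CPM, 0.52 [0.38 to 0.67]) and Ext2 lower (82.3 and 56.7 CPM, -0.54 [-0.65 to -0.43]), with intervals on opposite sides of 0. The TPM of Ext2 over that of Ext1 was 3.15 in mESC and 1.5 in cEpiSC. Extl3, which encodes the enzyme that adds the first chain sugar after the linker, stood at 64.5 and 50.6 CPM (-0.35 [-0.47 to -0.23]). Extl1 (18.3 and 13.6 CPM) and Extl2 (10.1 and 7.43 CPM) had ratios of -0.43 and -0.44.

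N-deacetylase/N-sulfotransferases make the first modification, on which the later ones depend. Ndst1, the broadly expressed enzyme, was 2.23-fold lower in cEpiSC, at 54.9 and 24.6 CPM (1062 and 503 counts, -1.16 [-1.31 to -1.0045]). The call did not hold with FPKM after a pseudocount of 1 was added (-0.87), or after centring on transcript length (-0.84). Ndst2 stood at 20.9 and 12.9 CPM (-0.70 [-0.93 to -0.47]), with some reads shared with similar loci, so its interval is too narrow. Ndst3 and Ndst4 had 0 counts in both libraries, which allows up to 0.155 CPM in mESC and 0.147 CPM in cEpiSC. Summed over the family, TPM was 23.4 in mESC and 11.9 in cEpiSC. Glce, the epimerase that turns glucuronic into iduronic acid, was at 49.2 and 40.6 CPM (-0.28 [-0.41 to -0.14]). Hs2st1, which sulfates the iduronic acid, was at 42.0 and 39.0 CPM, and its ratio of -0.11 [-0.25 to 0.04] turned above 0 after centring on length (0.04).

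The 6-O-sulfotransferases showed opposite differences in their 2 expressed genes. Hs6st1 (Entrez 50785, chromosome 1, 36068400 to 36106446), the broadly expressed enzyme, had 3014 counts in mESC (156 CPM) and 1301 in cEpiSC (63.6 CPM), 2.45-fold lower (-1.29 [-1.39 to -1.20]). Hs6st2 (Entrez 50786, chromosome X, 51386637 to 51681705) was all but silent in mESC, with 3 counts, and had 114 in cEpiSC (0.155 and 5.57 CPM). Without a prior count that is 35.9-fold. The log2 ratio, which includes it, was 4.47 [3.58 to 7.47], the highest among the 24 members compared. Hs6st3 had 2 counts and 1. In absolute level Hs6st1 still led: it made up 99.8% of the family's TPM in mESC and 92.7% in cEpiSC, with Hs6st2 at 0.09% and 7.1%. Summed 6-O-sulfotransferase TPM was 77.2 and 32.8, 2.35-fold lower in cEpiSC.

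Among the 3-O-sulfotransferases, which add the rarest group of the chain, the leading gene changed. Hs3st3b1 (Entrez 54710, chromosome 11, 63884693 to 63922284), whose product is known for making chains that bind a herpesvirus glycoprotein, was 6.64-fold lower in cEpiSC. It stood at 21.1 and 3.18 CPM (408 and 65 counts, -2.69 [-3.13 to -2.35]). A small part of its reads was shared with a similar locus. Hs3st3a1, its close paralog 513.0 kb away, had 1 count in each library after rounding, from an estimate of 1.05. Hs3st6 (Entrez 328779, chromosome 17, 24752988 to 24758690) had 5 counts in mESC and 79 in cEpiSC (0.258 and 3.86 CPM), 14.9-fold higher (3.46 [2.62 to 5.56]).

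The summed TPM of the 3-O family was nearly equal, at 7.61 in mESC and 7.58 in cEpiSC. Its make-up was not: Hs3st3b1 held 84.0% in mESC and 12.3% in cEpiSC, and Hs3st6 4.73% and 75.7%. By counts instead of TPM, Hs3st6 held 1.16% of the family's counts in mESC (exact Clopper-Pearson interval 0.38% to 2.69%) and 47.0% in cEpiSC (39.3% to 54.9%). Hs3st3b1 held 94.9% in mESC (92.4% to 96.8%) and 38.7% in cEpiSC (31.3% to 46.5%), so in cEpiSC the intervals overlap and the leading gene by counts is within counting error. The transcript of Hs3st6 is the shorter (1168 bases, against 5908 for Hs3st3b1, as implied by counts and FPKM). The other 5 genes stayed below 1 CPM: Hs3st1 had 11 and 8 counts, Hs3st4 5 and 12, Hs3st5 0 and 3, and Hs3st2 0 in both libraries.

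**Figure D3:**
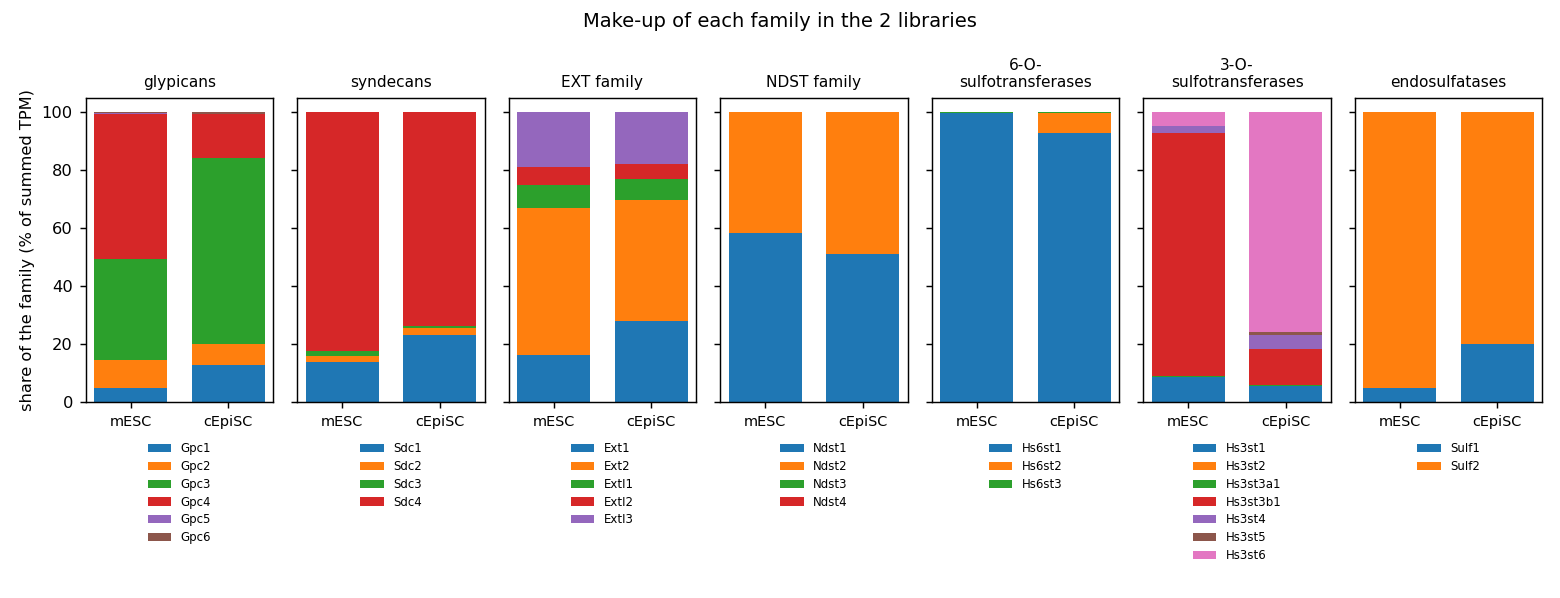
Share of each family's summed TPM held by each member in the mESC and cEpiSC libraries (stacked bars, percent; 1 library each), for the 7 families with more than 1 gene. The leading gene differs between the libraries in 2 families, the glypicans (Gpc4 at 50.2% of mESC, Gpc3 at 64.1% of cEpiSC) and the 3-O-sulfotransferases (Hs3st3b1 at 84.0%, Hs3st6 at 75.7%).

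The endosulfatases, which edit chains after they reach the surface, also differed in opposite directions. Sulf2 was the most abundant member gene of all in mESC, at 197 TPM, and came after Sdc4 in cEpiSC, at 121 TPM. In CPM it stood at 403 and 253, 1.59-fold lower in cEpiSC (7806 and 5177 counts, -0.67 [-0.72 to -0.62]). Sulf1 (Entrez 240725, chromosome 1, 12692197 to 12861192) had 521 counts in mESC (26.9 CPM) and 1699 in cEpiSC (83.0 CPM), 3.08-fold higher (1.62 [1.48 to 1.77]). The TPM of Sulf2 exceeded that of Sulf1 19.3-fold in mESC and 3.95-fold in cEpiSC, so Sulf2 led in both. Summed endosulfatase TPM was 208 and 151.

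Genes that act before, beside or after these members were taken from 6 fixed lists. The linker enzymes, which start heparan and chondroitin sulfate chains alike, were all within 2-fold (7 of 7, ratios from -0.41 to 0.23). Most genes compared were too, with 13.6% called higher and 9.25% lower. The kinase gene Fam20b (55.3 and 48.3 CPM) and the xylosyltransferase gene Xylt2 (41.6 and 35.1 CPM) had the most counts. Per length, B3gat3, which encodes the glucuronosyltransferase that completes the linker, was the most abundant (39.2 and 29.5 TPM). Genes that supply sugar nucleotides and sulfate donor were within 2-fold in 9 of 10 cases. Called higher was 1 (10%, against 13.6% of all genes), and none was lower (against 9.25%). The exception was Papss2, a sulfate donor synthase gene of low level (9 and 26 counts, 1.28 [0.31 to 2.73]), at 0.24 and 0.62 TPM. With a pseudocount of 1 added it fell within 2-fold on the TPM (0.39) and FPKM (0.27) scales. Its more abundant paralog Papss1 was at 25.7 and 24.7 CPM.

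Matrix proteoglycan genes included large differences in both directions. Col18a1, which encodes collagen XVIII, a heparan sulfate proteoglycan of basement membranes, was 5.90-fold higher in cEpiSC, at 97.2 and 574 CPM (2.56 [2.49 to 2.63]). Hspg2, which encodes perlecan, was 2.39-fold lower, at 341 and 142 CPM (-1.26 [-1.32 to -1.20]), though within 2-fold after centring on length (-0.94). Spock2, which encodes a testican, was higher at 11.1 and 43.0 CPM (1.94 [1.74 to 2.18]). Agrn, which encodes agrin, was at 279 and 158 CPM (-0.82 [-0.88 to -0.76]). Of the 8 matrix and part-time proteoglycan genes compared, 2 were called higher (25%, against 13.6% of all genes), 1 lower (12.5%, against 9.25%) and 5 neither. Of those 5, Cd44 (14 and 30 counts, 2.03-fold higher) and Spock1 (43 and 22 counts, 2.07-fold lower) were past 2-fold without the prior count.

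Heparan sulfate breakdown genes gave 1 lower of 9 (11.1%), near the 9.25% of all genes. It was the heparanase gene Hpse (51 and 16 counts, -1.63 [-2.66 to -0.92]), at 1.58 and 0.45 TPM. With a pseudocount of 1 added it was within 2-fold on the TPM (-0.83) and FPKM (-0.55) scales. In the glypican release list, Gpld1, which encodes a phospholipase that cuts GPI anchors, was lower (35 and 5 counts, -2.47 [-4.60 to -1.53]), with shared reads. It was at 1.09 and 0.1 TPM, but within 2-fold once a pseudocount of 1 was added to TPM (-0.93) or FPKM (-0.59). Notum, which was first described as a glypican-releasing enzyme and is known to inactivate Wnt, was at 8.53 and 12.7 CPM (0.56 [0.28 to 0.86]).

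The genes of chondroitin and dermatan sulfate, the sister chains, had 2 called higher (15.4%), 1 lower (7.7%) and 10 neither among 13 compared, at a median of 0.00. These shares are near those of all genes (13.6% and 9.25%). Chst11 (42 and 89 counts) was 2.00-fold higher without the prior count and was not called. Sulfotransferase genes made up the 3 called. Chst15 went from 26 to 317 counts (3.43 [2.95 to 4.16]) and Chst7 from 8 to 52 counts (2.36 [1.54 to 3.91]). Chst3 went from 10.2 to 3.32 CPM (-1.59 [-2.04 to -1.21]). With FPKM and a pseudocount of 1, Chst7 (0.85) and Chst3 (-0.76) were within 2-fold. The polymerase genes Chsy1 (0.23 [0.07 to 0.38]), Chpf (0.00 [-0.15 to 0.15]) and Chpf2 (-0.47 [-0.81 to -0.15], with shared reads) were within 2-fold. Of the genes called in these related lists, Papss2 and Chst7 reached 1 CPM in cEpiSC only, and Hpse and Gpld1 in mESC only, so each could be compared only through the library where it was higher.

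**Figure D4:**
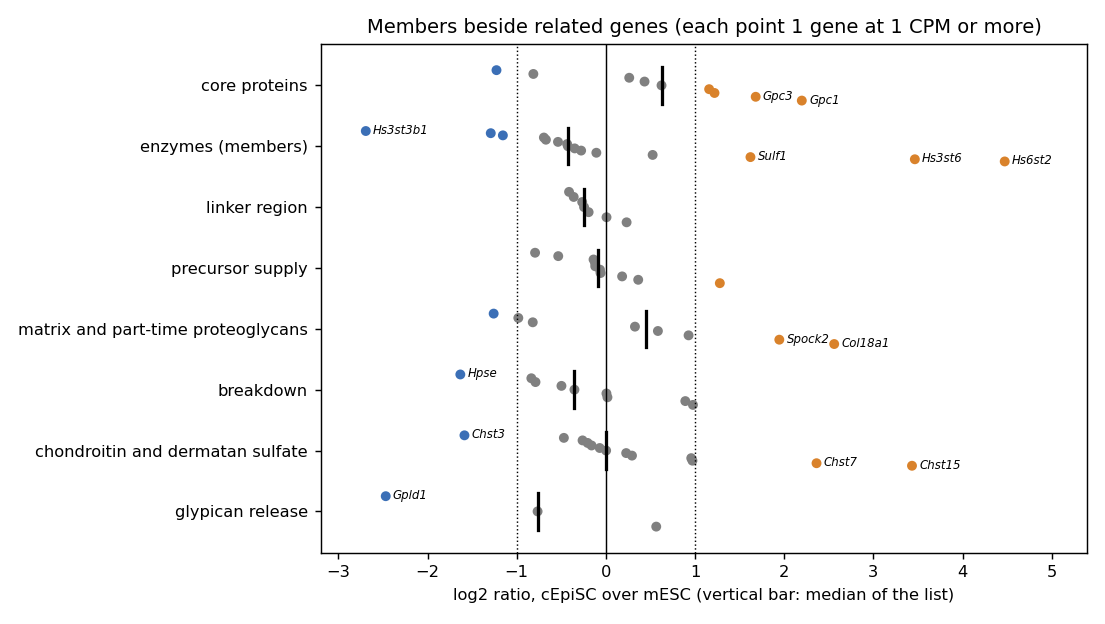
Log2 ratio of cEpiSC over mESC for the core protein members, the enzyme members and the 6 related lists, with each point 1 gene at 1 CPM or more, coloured as higher (orange), lower (blue) or within 2-fold (grey); black bars are medians and dotted lines mark 2-fold. The linker genes lie between -0.41 and 0.23, while the member enzymes run from -2.69 to 4.47.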

How the data were processed

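Polyadenylated RNA was sequenced in 1 mESC and 1 cEpiSC library. Tools listed in the submitters' processing notes are HISAT2, Bowtie2, RSEM 1.3.1 and DESeq2 1.34.0, with build GRCm38.p6. Their roles, the annotation and any filter are not stated there. The deposited table gives estimated counts per gene, not scaled (11.3% and 11.9% of genes lie over 0.005 from a whole number, as when similar loci share reads). It also gives TPM and FPKM values, made by the authors per transcript length and sequencing depth. Columns of other samples: 0.

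Members were matched by symbol. Members, lists and rules were chosen with earlier results of these data known. Estimated counts were rounded and scaled by TMM in edgeR 4.0.16 (R 4.3.3; factors 0.975 and 1.025). The log2 ratio used a prior count of 2; folds and exact conditional (Clopper-Pearson) 95% intervals did not. Intervals and the floor of 3 counts per library (0.155 and 0.147 CPM) cover counting error only, since PCR reads lack molecular identifiers. With 1 library per state no test was possible, so calls are by size among genes at 1 CPM or more. The interval script was tested on simulated data. Every member is named. From each related list, up to 4 genes at least 2-fold apart with the largest ratios are named, or the 2 most abundant; Papss1, B3gat3, Agrn, Cd44, Spock1, Notum, Chst11, Chsy1, Chpf, Chpf2, Usp26 and 1700080O16Rik were named after their values were seen. Coordinates come from RefSeq, joined by Entrez identifier (33 of 33 members). Bpnt2 and Impad1 are names of 1 gene, and Gpihbp1 was not matched. The analysis was repeated with DESeq2 1.42.0 size factors, library totals, no filter, 5 CPM, prior counts of 0.5 and 5, TPM and FPKM with a pseudocount of 1, and ratios centred on deciles of transcript length (from counts and FPKM). Other computation used Python 3.11.15.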

Additional observations from a re-analysis of the deposited data

How the results depend on the processing

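Under the 9 alternatives, the number of members called higher in cEpiSC ranged from 5 (filter at 5 CPM, 22 members) to 8 (no filter, 30 members), beside 7 of 24 as reported. The share of all genes called higher moved as well: it was 8.78% at 5 CPM, 16.09% with no filter, 8.25% with TPM and 7.14% with FPKM. With TPM and with FPKM 6 members were higher. The number lower was 4 under 6 of the alternatives, where 8.37% to 9.88% of all genes were lower. It was 3 with TPM (7.17% of all genes) or after centring on length (8.51%), and 2 with FPKM (5.13%). The members' median log2 ratio of -0.19 lay between -0.31 (5 CPM) and -0.11 (FPKM), and was 0.00 (0.002) after centring on transcript length; the compared members have a median length of 3648 bases against 2716 for all genes compared. The leading gene changed in 2 of 7 families by TPM and also by counts, in the 3-O family within counting error by counts. No called member changed direction. Within 2-fold fell 6 single values (Sdc3 and Gpc6 with TPM and FPKM, Ndst1 with FPKM and after centring). On the TPM and FPKM scales a pseudocount of 1 was added, which draws low values towards 0. No paired analysis was possible because each group has 1 library, and for the same reason no library could be left out. The 9 members under 1 CPM in both libraries were not compared. The interval of each spanned 0, so no difference could be told from counting error. Whether depth or absent expression kept their counts low was not tested.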
